A study of Homo sapiens with 4 samples.

Results

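The genes examined were the cyclins, kinases and pocket proteins that carry a cell from G1 into S phase: CCND1, CCND2, CCND3, CCNE1, CCNE2, CDK2, CDK4, CDK6, RB1 and RBL1. They were chosen by name, with earlier results of these data known. They were 10 of the 43317 gene names on the array and carried 12 of its 58201 gene probes. CCNE2 and RBL1 had 2 probes each and the other 8 genes had 1. The series concerns PSAT1, an enzyme of serine synthesis, and vesicle release by cancer cells, and its 4 human RNA samples each went on 1 array labelled with 1 colour. HCT116, an established colorectal cancer line grown in McCoy's 5A medium, and A549, an established lung cancer line grown in DMEM, were each transfected with the microRNA miR-891b or with NC1, a negative control, using the reagent Dharmafect1. The time between transfection and harvest is not given in the sources used here. With 1 array for each of the 4 pairings of a line and an agent, a difference within a line has no replicate check and no test.

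D-type cyclins (CCND1, CCND2 and CCND3) are the regulatory subunits of the kinases CDK4 and CDK6, and they link growth factor signals to the cell cycle. These kinases phosphorylate the pocket proteins RB1 and RBL1, which otherwise hold E2F transcription factors and the promoters of S phase genes in a repressed state. E-type cyclins (CCNE1 and CCNE2), themselves E2F targets, then bind CDK2 and complete the phosphorylation at the start of S phase.

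The transfected agent was miR-891b, whose mature sequence is shown because the seed guides pairing with transcripts. It is given 5′ to 3′ from RefSeq, at chrX:146001100-146001121 on the minus strand of GRCh38.p14, with the seed (bases 2 to 8) in capitals.
hsa-miR-891b: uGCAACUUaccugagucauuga
The 7-letter match to that seed, AAGTTGC, was searched in the probe sequences as listed, and 0 of the 12 probes of these genes held it, against 229 of 58201 (0.393%) of all gene probes. The overlapping form AGTTGCA, which matches bases 2 to 7 and adds an A, was also in 0 of the 12 and in 212 (0.364%) of all probes. The probes are 60 bases long and cover only a small stretch of each transcript, so that these searches say nothing of the rest of it.

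RefSeq promoter windows, 250 bases before to 50 bases after a start, were used for 6 of the 10 genes, matched by symbol (CCND3, CCNE1, CDK4, CDK6, RB1 and RBL1), with 9 windows in all. For RB1 the only window was chr13:48476200-48476499 (plus strand, GRCh38.p14). Whether it holds the main promoter of RB1 was not examined, so its lack of a match says nothing of that promoter. Starts of these genes without a window were not searched. They were searched on both strands for 4 words of 8 letters that an E2F factor is known to bind, TTTCCCGC, TTTCGCGC, TTTGCCGC and TTTGGCGC. RBL1 and CCNE1 are shown because RBL1 had the window with matches and because both are known E2F targets with transcripts measured here. The RBL1 window lies at chr20:37095948-37096247 (minus strand) and the CCNE1 window at chr19:29811741-29812040 (plus strand), both on GRCh38.p14, and matched words are in capitals.
RBL1: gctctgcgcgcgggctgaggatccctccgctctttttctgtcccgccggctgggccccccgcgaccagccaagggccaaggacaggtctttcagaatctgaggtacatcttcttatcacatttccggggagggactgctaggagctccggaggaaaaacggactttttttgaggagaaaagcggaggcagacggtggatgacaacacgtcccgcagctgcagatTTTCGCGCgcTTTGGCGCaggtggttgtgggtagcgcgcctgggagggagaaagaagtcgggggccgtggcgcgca
CCNE1: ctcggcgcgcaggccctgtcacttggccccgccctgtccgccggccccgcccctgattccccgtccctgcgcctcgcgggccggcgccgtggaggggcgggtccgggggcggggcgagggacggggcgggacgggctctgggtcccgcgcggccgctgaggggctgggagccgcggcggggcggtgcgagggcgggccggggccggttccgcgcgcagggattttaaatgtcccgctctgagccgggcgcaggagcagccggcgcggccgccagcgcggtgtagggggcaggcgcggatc
The RBL1 window held TTTCGCGC starting 26 bases and TTTGGCGC starting 16 bases before the start. It was the 1 of 9 windows with a match, and 1164 of 35116 windows in the whole RefSeq table (3.31%) held at least 1 of the words. A match describes letters and not binding, and the other windows lack only these letters.

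Levels are log2 of the scanner's processed signal minus the 75th percentile of the array, so 0 is the brightness at that percentile. The signal at that percentile was 54.9 with NC1 and 57.0 with miR-891b in HCT116, and 74.8 and 74.2 in A549, and between 44.7% and 50.3% of gene probes were well above background. Both arrays of a line were on 1 slide, and the lines were on different slides, so that line and slide cannot be told apart. The lines' markers followed the labels: the summed signal of 5 A549 markers (AKR1B10, AKR1C1, ALDH1A1, ALDH3A1 and NQO1), relative to the 75th percentile, was 4.51 and 7.61 on the HCT116 arrays and 2289 and 1918 on the A549 arrays. That of 4 HCT116 markers (EPCAM, CDX2, CLDN7 and CLDN3) was 180 and 142 against 7.64 and 13.6. Of 6 fibroblast markers, COL1A1 and PDGFRB were well above background on every array, and LUM and THY1 on both A549 arrays only. COL3A1 and DCN were not well above background on any array, and the sums over all 6 were 2.62, 2.16, 4.25 and 10.5. The array of HCT116 miR-891b had areas of stray signal, where at least 10% of the surrounding spots dim on the remaining arrays passed background, and these held 10.5% of its gene spots, against 0.0213% to 2.20% on the other 3 arrays.

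In A549 cells, 4 of the 9 members that were measured stood at least 2-fold lower after miR-891b than after NC1: CCND1, CCNE2, CDK2 and RBL1. None was at least 2-fold higher, and the other 5 (CCND3, CCNE1, CDK4, CDK6 and RB1) all lay within 0.5 on the log2 scale. Over all 21337 genes measured in A549, 5.57% had a level at least 2-fold lower and 4.01% at least 2-fold higher. In HCT116 cells 0 of 9 measured members passed 2-fold in either direction, where 0.843% of 19105 genes were lower and 1.16% were higher by that much. At a threshold of 1.5-fold, 2 members were higher in HCT116 (CCNE2 and CDK6) and 0 were lower, against 3.91% and 5.65% of all genes. At that threshold the 4 lower members in A549 were the same and 0 were higher, against 15.3% and 11.1% of all genes. The median difference over the members was -0.37 in A549, with -0.059 over all genes, and ran from -0.37 to -0.21 over the processing settings. In HCT116 it was 0.02, with -0.041 over all genes, and ran from 0.02 to 0.14. A gene counted as measured in a line whose arrays both marked its probe as well above background, and CCND2 was the 1 member that was not measured in either line. With another background correction and scaling (normexp with quantile normalization), the A549 count of lower members was 1, with CCND1 at -1.20, and CCNE2 (-0.57), CDK2 (-0.58) and RBL1 (-0.65) lay within 2-fold. Under that setting the share of all genes at least 2-fold lower in A549 was 2.02%.

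Markers of dividing cells (MKI67, TOP2A, CCNB1, CDK1, PLK1 and BUB1) were also lower in A549, where the 4 members were. In A549, 6 of 6 were at least 2-fold lower, from -1.90 to -1.58, and in HCT116 0 of 6, from -0.20 to 0.14. Their summed signal relative to the 75th percentile was 106 with NC1 and 111 with miR-891b in HCT116, and 115 with NC1 and 33.9 with miR-891b in A549, and all 6 were well above background on every array. The part of these markers in the differences of CCND1, CCNE2, CDK2 and RBL1 was not tested. In bulk RNA, fewer cells in a phase of the cycle and less RNA per cell cannot be told apart.

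**Figure D1:**
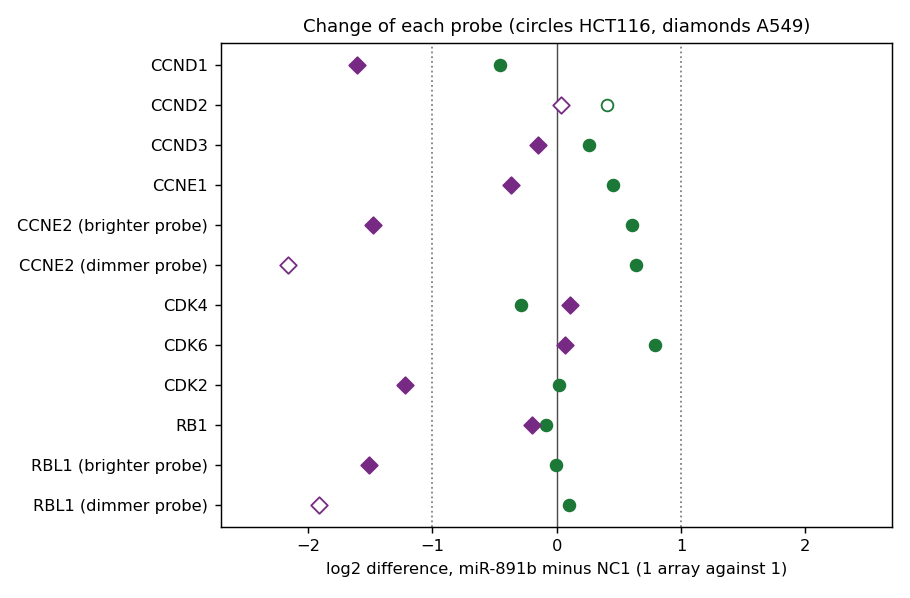
Difference of log2 level, miR-891b minus NC1, for each member probe in HCT116 (circles) and A549 (diamonds), 1 array per group and no replicate error; dotted lines mark 2-fold and open symbols a probe not well above background on both arrays. CCND1, CCNE2, CDK2 and RBL1 lie left of the line at -1 in A549, and no member passes either line in HCT116.

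Among the D-type cyclins, CCND1 (cyclin D1) had the lowest A549 difference. Its probe, at chr11:69468233-69468292 on hg19, the build of all probe positions here, had levels of 3.31 with NC1 and 2.85 with miR-891b in HCT116, and of 2.38 with NC1 and 0.77 with miR-891b in A549. The A549 miR-891b array was the lowest of the 4 and both HCT116 arrays were the highest. The difference was -1.61 in A549, a 3.05-fold lower level, and 308 of the 21337 measured genes (1.44%) were as low or lower. In HCT116 it was -0.46, a 1.37-fold lower level.

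The CCND1 probe was printed at 10 spots on each array, which gives the measurement error within an array. Its signals ran from 512 to 588 (median 546) on HCT116 NC1 and from 393 to 441 (median 406) on HCT116 miR-891b. On A549 NC1 they ran from 372 to 403 (median 394), and on A549 miR-891b from 119 to 132 (median 127) over 9 spots, after 1 spot with an outlier mark was left out. The spots of the paired arrays did not overlap in either line. How many other probes were apart in this way was not counted. Over probes at 5 or more spots, the median SD of the spot differences was 0.061 in HCT116 and 0.071 in A549. The SD over all measured genes was larger, 0.38 and 0.61, so such gaps need not be particular to CCND1. Spot by spot, the difference was -0.46 ± 0.065 (SD, 10 spots) in HCT116 and -1.61 ± 0.076 (SD, 9 spots) in A549. Spots share 1 labelled RNA, so this spread covers the array and not the culture or the transfection.

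**Figure D2:**
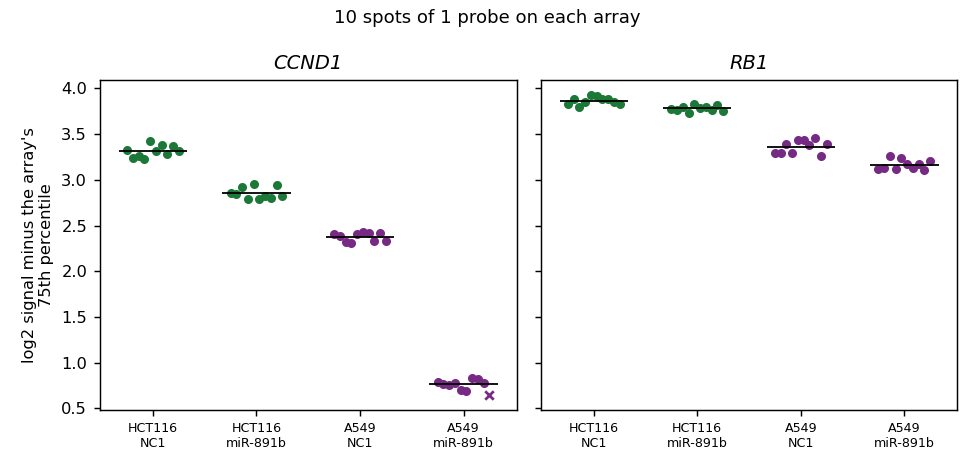
Log2 level at each of the 10 spots of the CCND1 probe and of the RB1 probe on the 4 arrays, with a cross for a spot left out as an outlier and a bar for the mean. CCND1 spots of miR-891b and NC1 are apart in both lines, by 1.48 in A549 and 0.27 in HCT116. How many other probes are apart was not counted. RB1 spots overlap in both, only narrowly in A549.

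CCND3 (cyclin D3) had levels of 1.86 with NC1 and 2.11 with miR-891b in HCT116, and of 2.65 with NC1 and 2.51 with miR-891b in A549 at chr6:41903193-41903252. The 2 A549 arrays were above the 2 HCT116 arrays, and the differences with miR-891b were 0.26 in HCT116 and -0.15 in A549. In A549 the CCND1 difference minus that of CCND3 was -1.46, and ran from -1.52 to -1.20 over the processing settings tried.

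CCND2 (cyclin D2) was not well above background on any of the 4 arrays at its probe, chr12:4414040-4414099. Its values of -5.79, -5.39, -6.23 and -6.19 have no order. No fold is given for it.

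Of the E-type cyclins, CCNE1 (cyclin E1) stayed within 2-fold in both lines and CCNE2 (cyclin E2) was higher with miR-891b in HCT116 and lower in A549. CCNE1 had levels of 4.96 with NC1 and 5.41 with miR-891b in HCT116, and of 4.41 with NC1 and 4.04 with miR-891b in A549 at chr19:30315106-30315165. Its difference was 0.45 in HCT116 and -0.37 in A549, or 1.37-fold higher and 1.29-fold lower. The brighter CCNE2 probe, chr8:95892618-95892677, had levels of 1.27, 1.87, 0.03 and -1.45 on the same arrays in that order. That is 1.52-fold higher with miR-891b in HCT116 (0.60) and 2.79-fold lower in A549 (-1.48), where 412 genes (1.93%) were as low or lower.

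The other CCNE2 probe, chr8:95894361-95894420, was dimmer, with levels of -1.66 in HCT116 NC1, -1.02 in HCT116 miR-891b and -2.91 in A549 NC1. It was not well above background on A549 miR-891b, so that its A549 difference is a bound, at least 2.03-fold lower (the NC1 level against the lowest level of any probe well above background on A549 miR-891b). In HCT116 this probe was 0.64 higher with miR-891b, close to the 0.60 of the brighter one, but its spot lay in an area of stray signal on HCT116 miR-891b (15.3% of nearby dim spots above background). Whether that signal takes part in the HCT116 value was not tested. Both CCNE2 probes had the same direction in each line. In A549 the CCNE2 difference minus that of CCNE1 was -1.11, with a range from -1.28 to -0.34 over the settings.

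Among the kinases, CDK2, the partner of the E-type cyclins, was lower in A549 while CDK4 and CDK6, the partners of the D-type cyclins, were not. CDK2 had levels of 0.92 with NC1 and 0.94 with miR-891b in HCT116, and of 0.25 with NC1 and -0.97 with miR-891b in A549 at chr12:56365789-56365848. The HCT116 arrays were 0.02 apart, and A549 miR-891b was 2.33-fold below A549 NC1 (-1.22), with 710 genes (3.33%) as low or lower. The CDK2 spot on HCT116 miR-891b also lay in an area of stray signal (15.4% of nearby dim spots), and its part in the HCT116 value was not tested.

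CDK4 had levels of 6.09 with NC1 and 5.81 with miR-891b in HCT116, and of 5.20 with NC1 and 5.31 with miR-891b in A549 at chr12:58142263-58142322. Its difference was -0.28 in HCT116 and 0.11 in A549, or 1.22-fold lower and 1.08-fold higher. CDK6 had levels of 3.86, 4.65, 4.43 and 4.50 on those arrays at chr7:92234443-92234502. HCT116 NC1 was the low array, 1.73-fold below HCT116 miR-891b (0.79), and 382 of 19105 genes were as high or higher. The A549 arrays differed by 0.07. In A549 the CDK2 difference was -1.33 relative to that of CDK4 (from -1.55 to -0.90 over the settings) and -1.29 relative to that of CDK6 (from -1.49 to -0.85).

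Of the pocket proteins, RBL1 (p107, which binds the repressive E2F factors) was lower in A549 and RB1 (the retinoblastoma protein) was not past 2-fold in either line. RB1 had levels of 3.87 with NC1 and 3.78 with miR-891b in HCT116, and of 3.36 with NC1 and 3.17 with miR-891b in A549 at chr13:49055845-49055904. Over its 10 spots the difference was -0.08 ± 0.043 (SD) in HCT116 and -0.19 ± 0.051 (SD) in A549. The spots of the paired arrays overlapped in both lines, narrowly in A549 (lowest NC1 spot 3.259, highest miR-891b spot 3.262). Spot by spot every difference was negative, from -0.126 to -0.0049 in HCT116 and from -0.28 to -0.13 in A549. On HCT116 miR-891b, up to 13.3% of the dim spots near an RB1 spot passed background.

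The brighter RBL1 probe, chr20:35627197-35627256, had levels of -0.22 on both HCT116 arrays, and of 0.25 with NC1 and -1.26 with miR-891b in A549. The A549 miR-891b array stood alone, 2.85-fold below A549 NC1 (-1.51), with 385 genes (1.80%) as low or lower. The HCT116 difference was -0.0033 and its sign turned with the processing, from -0.03 to 0.05. The dimmer RBL1 probe, chr20:35635829-35635888, is annotated to another transcript of the gene and had levels of -2.60 in HCT116 NC1, -2.50 in HCT116 miR-891b and -2.42 in A549 NC1. It was not well above background on A549 miR-891b, which gives at least 2.85-fold lower, and it differed by 0.10 in HCT116. The A549 difference of RBL1 minus that of RB1 was -1.31, with a range from -1.45 to -0.57.

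**Figure D3:**
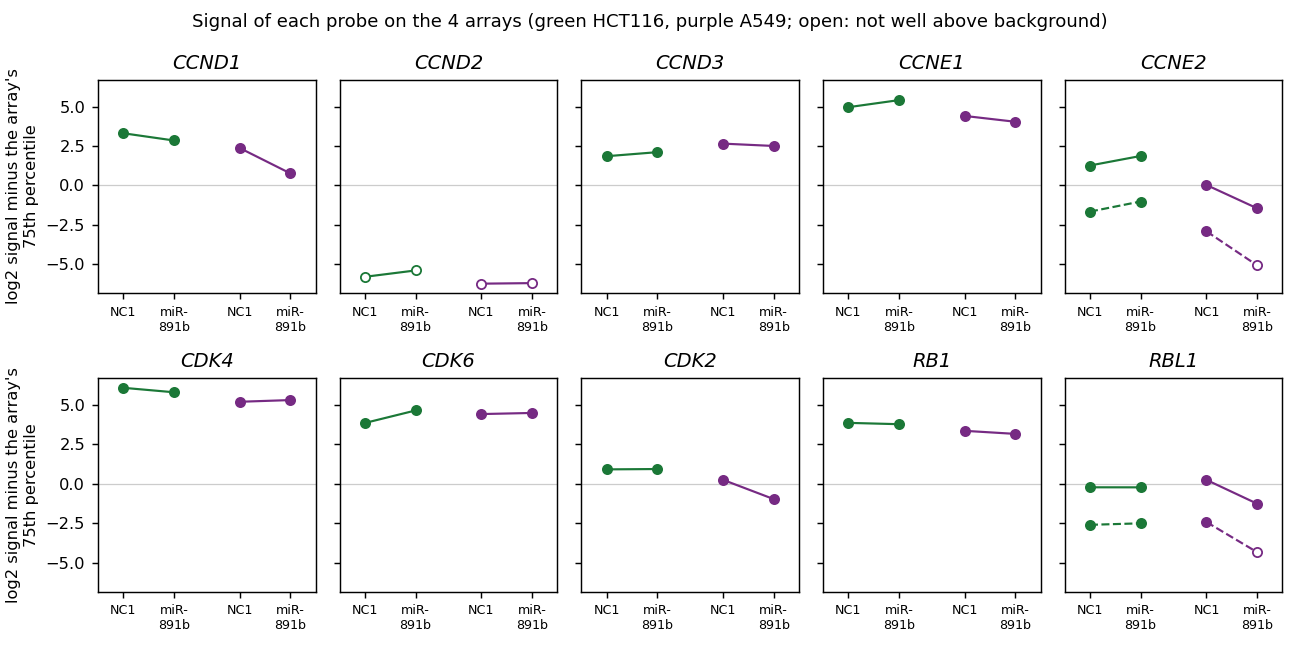
Log2 level of every member probe on the 4 arrays, 0 being the 75th percentile of the array; green is HCT116, purple is A549, dashes join the second probe of a gene and open symbols mark a probe not well above background. CCND2 is not well above background on any array, and both probes of CCNE2 and of RBL1 are lowest on A549 miR-891b.

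In the NC1 cells, A549 and HCT116 differed by at least 2-fold in 1 of 9 measured members, CCNE2, which was 2.36-fold lower in A549 (-1.24). Over 19219 genes measured on both NC1 arrays, 16.2% had an A549 level at least 2-fold lower and 11.1% at least 2-fold higher. With normexp and quantile normalization this count was 0, and 7.27% of all genes were at least 2-fold lower. CCND1 (-0.94), CDK4 (-0.89), CDK2 (-0.66), CCNE1 (-0.55) and RB1 (-0.51) were also lower in A549 by less than 2-fold. CCND3 (0.80), CDK6 (0.57) and RBL1 (0.47) were higher in A549, again by less than 2-fold. The line, the medium and the slide change together here and cannot be told apart.

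The 2 lines are the only repeat of the transfection, and a model with line and treatment terms was fitted with limma over 22711 genes on all 4 arrays. It called 0 genes (0.00%) at an adjusted p under 0.05, and 1214 (5.35%) had an unadjusted p under 0.05. Of the 9 members in the fit, 0 passed the adjusted threshold. CCND1 was the 1 with an unadjusted p under 0.05, though not under every processing setting. Its mean difference over the lines was -1.03 (SE 0.36), lower in 2 of 2 lines, with a limma p of 0.0444 and an adjusted p of 0.793. RBL1 had -0.76 (SE 0.43, limma adjusted p 0.793), CDK2 -0.60 (SE 0.38, limma adjusted p 0.796) and CDK6 0.43 (SE 0.29, limma adjusted p 0.802). CCNE2, of opposite sign in the lines, had -0.44 (SE 0.56, limma adjusted p 0.882). The fit had 1 residual degree of freedom.

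The position of the members among all genes is the wider setting for these values. In A549 the 9 measured members spanned -1.61 to 0.11, and in HCT116 -0.46 to 0.79. The SD over all measured genes was 0.61 in A549 and 0.38 in HCT116. Over probes printed at 5 or more spots, the median SD of the spot differences was 0.071 in A549 (287 probes) and 0.061 in HCT116 (276 probes), and the A549 differences of CDK6 (0.07) and CDK4 (0.11) were near that size.

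**Figure D4:**
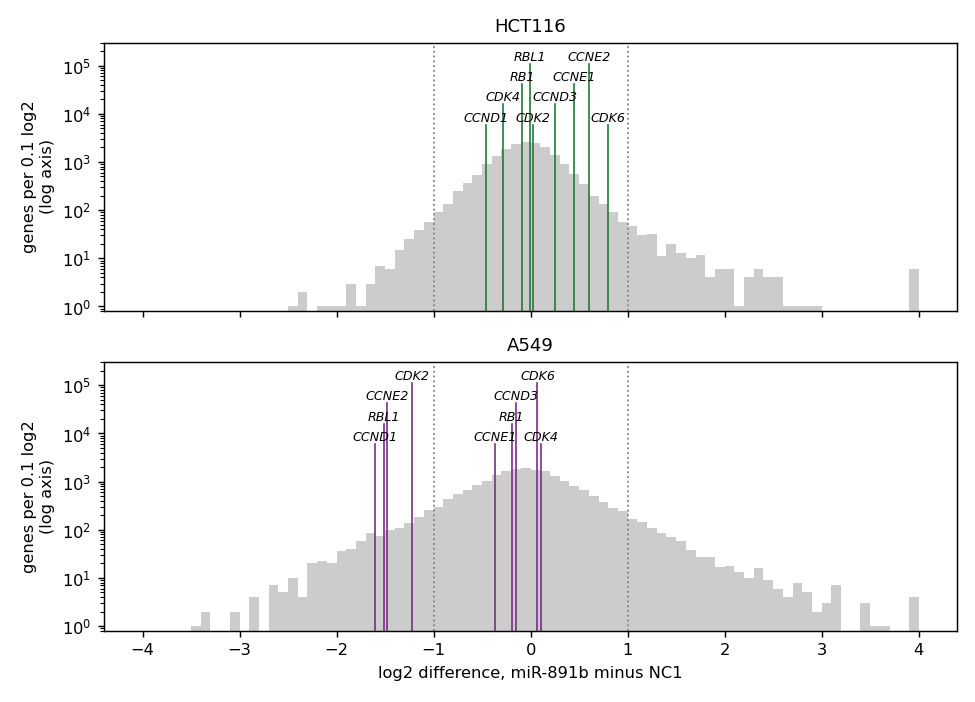
Number of genes (log scale) by difference of log2 level, miR-891b minus NC1, over all measured genes of each line, with lines at the members and changes beyond 4 pooled in the end bins. The 4 lower members in A549 lie in the left tail past -1, and the HCT116 members lie between -0.46 and 0.79.

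Other genes of the G1 and S phase machinery were grouped in 8 lists of 66 genes in all, with CCNA2 and MYBL2 in 2 lists each. The lists were written with earlier results of these data known, so their counts and order describe these values and are no independent support. In A549, 27 of the 63 that were measured were at least 2-fold lower and 1 was at least 2-fold higher. Their median was -0.50, against -0.059 over all genes measured there, of which 5.57% were at least 2-fold lower and 4.01% higher. Under normexp with quantile normalization 20 of 63 were at least 2-fold lower, against 2.02% of all genes. In HCT116, 0 of 63 passed 2-fold in either direction, against 0.843% of all genes lower and 1.16% higher. The median there was -0.03, against -0.041 over all genes.

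Genes that E2F factors switch on for S phase had the lowest median of the 8 lists in A549. There, 17 of 17 were at least 2-fold lower, against 5.57% of all genes. They ran from -2.40 to -1.11, with a median of -1.64 against -0.10 in HCT116. They included MCM2 (-2.40) and MCM5 (-1.87) of the replicative helicase and CDC6 (-2.23), which loads that helicase at origins. Of 10 E2F and DP factors, 4 were at least 2-fold lower in A549: the activator E2F1 (-2.09), its relative E2F2 (-1.44) and the repressors E2F8 (-2.61) and E2F7 (-1.84). On A549 miR-891b the E2F2 spot lay in an area of stray signal, with 17.5% of nearby dim spots well above background. Near an E2F1 spot this share reached 20.9% on A549 miR-891b and 12.8% on HCT116 miR-891b. The part of that signal was not tested. The median of that list was -0.43 in A549 and 0.15 in HCT116.

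In the list of the pocket protein RBL2, the MuvB core of the DREAM complex and MYBL2, 3 of 7 were at least 2-fold lower in A549. These were MYBL2 (-1.59), LIN9 (-1.56) and RBBP4 (-1.44), and the share over all genes was 5.57%. The probes of LIN9 and RBBP4 did not all pass 2-fold: the other LIN9 probe was at -0.76, and the other RBBP4 probes ran from -0.90 to -1.15. The list's median was -0.72 in A549 and -0.14 in HCT116.

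Of the genes that activate CDKs, 1 of 4 was at least 2-fold lower in A549, against 5.57% of all genes. It was the phosphatase CDC25A (-1.44), and the list median was -0.51 in A549 and 0.17 in HCT116. Of 2 measured cyclins of the A and C types, CCNA2, the partner of CDK2 in S phase, was lower (-1.87), with list medians of -0.51 and 0.20. Among ubiquitin ligase parts that act on cyclins or their inhibitors, 3 of 9 were at least 2-fold lower, namely CKS1B (-1.88), SKP2 (-1.29) and SKP1 (-1.15). CKS1B and SKP2 act together in the turnover of the inhibitor CDKN1B. That list had medians of -0.19 in A549 and 0.16 in HCT116.

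Of 6 measured CDK inhibitors, 0 passed 2-fold downward in A549 and CDKN1C (p57) was at least 2-fold higher (1.31), while it was at -0.74 in HCT116. The inhibitors' median was -0.16 in A549 and -0.26 in HCT116. Of 10 measured genes upstream of D cyclins, 0 passed 2-fold in either line, with medians of -0.08 in both. Over all genes, 5.57% were at least 2-fold lower and 4.01% higher in A549, and 0.843% and 1.16% in HCT116. Counts of 0 in lists this small therefore do not set these genes apart. The EGFR probes differed in A549: the brightest was at -0.97, and the others were at -1.06, past 2-fold, and 0.25. In HCT116 the same probes, in that order, were at -0.35, -1.13 and 0.09. The probe at -1.13 was not well above background on HCT116 miR-891b. These lists were compared by count and median only.

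**Figure D5:**
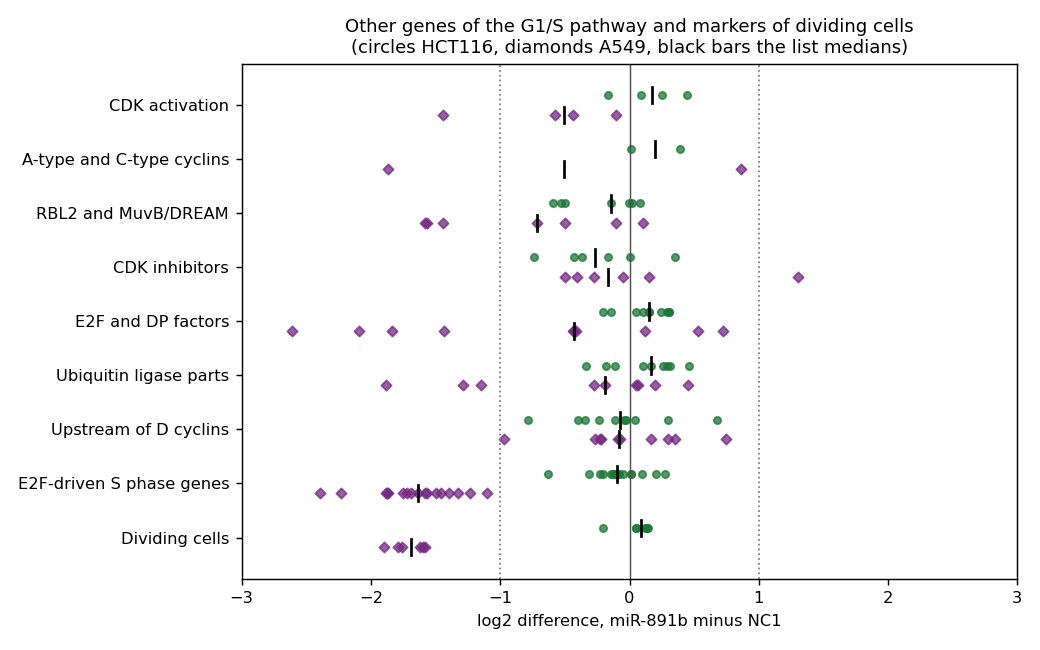
Difference of log2 level, miR-891b minus NC1, for each measured gene of the 8 lists and of the dividing-cell markers, with circles for HCT116, diamonds for A549 black bars for medians and dotted lines at 2-fold. All 17 E2F-driven S phase genes and all 6 dividing-cell markers lie left of the line at -1 in A549, and no gene shown passes either line in HCT116.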

How the data were processed

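Total RNA (100 ng) was labelled with Cy3 and hybridised to 1-colour Agilent arrays, per the labels. Scans were quantified with Agilent Feature Extraction 11.5.1.1, per the submitters' processing notes. The deposited scanner files hold intensity values, background-subtracted and with spatial trends removed within an array and with no scaling between arrays, per the file headers. The deposited table of the authors' log2 values does not state its making. For 58201 probes its values lay within a median of 0.0069 of the levels computed here from the scanner files, so its scale is that used here.

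Without spots marked as outliers, log2 processed signals were averaged per probe, and each array's 75th percentile over gene probes was subtracted. A single probe stood for a gene, that of the highest mean over 4 arrays, and the gene counted as measured in a line whose arrays both marked the probe as well above background. With 1 array per group, differences were called by size at 2-fold. A spot lay in an area of stray signal where, of the spots up to 10 rows and columns away and dim on the remaining arrays, at least 10% passed background on the array in question. The additive fit used limma 3.58.1 in R 4.3.3 on genes well above background on at least 2 of 4 arrays, with Benjamini-Hochberg adjustment, and was tested on simulated data. Other values came from Python 3.11.15 with numpy 2.4.6, pandas 2.3.3 and scipy 1.17.1.

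The members and lists were chosen with earlier results of these data known. The text names every member with all its probes. Of each list it names the genes past 2-fold at any measured probe, at most the 4 largest per line. A gene chosen this way is not reported here. Of the markers, names, ranges, summed signals and medians are given. The alternatives were normexp (offset 50) with quantile normalization, the latter alone, median scaling, the authors' values, a mean over probes, no filter on dim probes, probes well above background on all arrays, no areas of stray signal, and a 1.5-fold threshold. Gene names and hg19 probe positions are those of the array files.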

Additional observations from a re-analysis of the deposited data

Results flagged for a closer look

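Some values had opposite signs in the 2 lines. That contrast was not tested. The A549 difference minus the HCT116 difference was -2.08 for CCNE2, -1.24 for CDK2, -0.82 for CCNE1, -0.40 for CCND3 and 0.39 for CDK4. It was -0.39 for the median of the members. For list medians it was -1.78 for dividing-cell markers, -0.71 for A-type and C-type cyclins and -0.68 for genes that activate CDKs. It was -0.58 for E2F and DP factors and -0.35 for ubiquitin ligase parts. In HCT116, CDK2 and the median of the members were both at 0.02, so that their sign there carries little. Members of the same sign in both lines also differed between them, by -1.51 for RBL1, -1.15 for CCND1, -0.72 for CDK6 and -0.11 for RB1.

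Signal also appeared in the spots meant as blanks. Each array had 308 negative control spots. The HCT116 miR-891b array had 11 of them well above background and the A549 miR-891b array 2, against 0 on each NC1 array.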

How the results depend on the processing

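With 1 array per group, no setting stands in for a replicate. The limma fit pairs the arrays by line, and the labels give no replicate numbers that could serve as another block. Under normexp with quantile normalization the count of members at least 2-fold lower was 1 in A549 (4 in the chosen setting) and 0 between the NC1 arrays (1 in the chosen setting). The share of all genes fell too, from 5.57% to 2.02% and from 16.2% to 7.27%, and the cause was not tested. At a 1.5-fold threshold, 2 members were higher in HCT116 (CDK6 and CCNE2), where 3.91% of all genes were, and of 63 other pathway genes 4 were higher in A549 (11.1% of all genes), and 1 was higher and 4 were lower in HCT116 (3.91% and 5.65% of all genes). The other 90 counts computed under a setting were within 1.5 times the chosen one. Of the differences of single members and their medians, 184 moved by at most the spot SD and 53 by more, and no difference past 2-fold changed sign. The A549 differences ran over the settings from -1.61 to -1.20 for CCND1, -1.49 to -0.57 for CCNE2, -1.24 to -0.58 for CDK2 and -1.52 to -0.65 for RBL1. No value was given for CDK2 without areas of stray signal. The sign of a member's difference in a line changed under a setting for RBL1 in HCT116 alone, and that of the mean over the lines for CDK4 alone (-0.09 to 0.07). Under normexp the mean over the lines was -0.78 for CCND1, -0.34 for RBL1, -0.26 for CDK2 and -0.04 for CCNE2. The limma adjusted p of CCND1 ran from 0.471 without a filter to 0.836 with quantile normalization, and 0 members passed 0.05 under any setting. The unadjusted limma p of CCND1, 0.0444 in the chosen setting, was 0.0526 with the authors' values, 0.0542 with quantile normalization and 0.0625 under normexp.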
